A study of Homo sapiens with 3 samples.

Results

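The transcripts described here lie at 3 loci that hold genes for small nuclear RNAs of the spliceosome, and they were chosen by position. They are 7 of the 334 lncRNA transcripts the authors listed. MSTRG.382.1, MSTRG.382.2, MSTRG.382.3 and MSTRG.382.4 lie at the U1 genes RNU1-4 and RNU1-2 on chromosome 1, MSTRG.8142.1 lies at the U4 genes RNU4-2 and RNU4-1 on chromosome 12, and MSTRG.13824.1 and MSTRG.13824.2 lie in a repeat array of small nuclear RNA genes at 17q21 on chromosome 17. All 7 carried an assembly identifier and no database name, as did 116 of the 334.

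RNA came from MDA-MB-231, a long-established human line of triple negative breast cancer with mutant p53, grown in DMEM with fetal bovine serum and transfected with a plasmid for Flag-tagged focal adhesion kinase (FAK), a cytoplasmic tyrosine kinase of cell adhesion sites. The tagged protein was therefore overexpressed, and every group is labelled as expressing it. RNA was retrieved on beads with an anti-FLAG antibody (Flag-FAK) or with normal mouse IgG (IgG), and 10% of the input RNA was also sequenced (Input). The IgG group is the control for RNA that sticks to the beads or to IgG. No library came from cells without the tagged protein, so RNA held by the anti-FLAG antibody itself has no control. Each group is 1 library, so no value below has an SD, a p-value or a replicate check, and a difference describes these libraries.

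Introns are removed by the spliceosome, which is built on each pre-mRNA from small nuclear ribonucleoproteins. Each particle carries a short, abundant nuclear RNA. U1 pairs with the start of the intron, U2 with the branch point, and U4 arrives paired to U6 and holds it inactive until it is released. U1, U2 and U4 are transcribed by RNA polymerase II from small genes with their own promoters, are not polyadenylated, and exist in several nearly identical gene copies and many pseudogenes.

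The listed transcripts were much longer than the small nuclear RNA genes they covered, and those at U1 and U4 began in one gene copy and ended in another. In the GRCh38 coordinates of the tables, MSTRG.382.1 ran on the plus strand from 16740523 to 16896138, a span of 155616 bases. It began 7 bases inside RNU1-4 (16740516 to 16740679) and ended 5 bases before the end of RNU1-2 (16895980 to 16896143). MSTRG.382.2, MSTRG.382.3 and MSTRG.382.4 ended 2 bases before the end of RNU1-2, and all 4 spans covered 15 RefSeq genes, among them the U1 pseudogene RNU1-5P, the microRNA gene MIR3675 and transfer RNA genes. Only 316 bases of MSTRG.382.1, or 0.203% of its span, lay on the U1 genes. MSTRG.8142.1 ran on the minus strand from 120291771 to 120293231, a span of 1461 bases. Its lowest position lay 12 bases inside RNU4-2 (120291759 to 120291903) and its highest 6 bases inside the far edge of RNU4-1 (120293093 to 120293237). Of its span, 272 bases (18.6%) were on the U4 genes and the remainder in the spacer between them, and the annotated sirtuin gene SIRT4, from 120291780 to 120313249, covers the same stretch.

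At 17q21 both transcripts lay on the minus strand and had their highest position at 43251959, inside the snRNA gene LOC124904138, while their lowest positions, at 43239592 for MSTRG.13824.1 and 43240798 for MSTRG.13824.2, lay outside any annotated snRNA gene. MSTRG.13824.1 covered 4 annotated snRNA genes, LOC124904135 to LOC124904138, and MSTRG.13824.2 covered 3 of them. RNU2-1, the U2 gene, lies 5615 bases from the locus. The array from RNU2-1 to LOC124904144 holds 13 annotated snRNA genes, 11 of them 191 bases long, which is also the annotated length of the U2 gene RNU2-2, against 188 bases for RNU2-1. RefSeq names the 4 covered copies only by LOC numbers, so the locus is called 17q21 here. In the values below, U1 and U4 likewise stand for the listed transcripts at those loci. Their counts are not a measure of the small nuclear RNAs themselves.

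**Figure D1:**
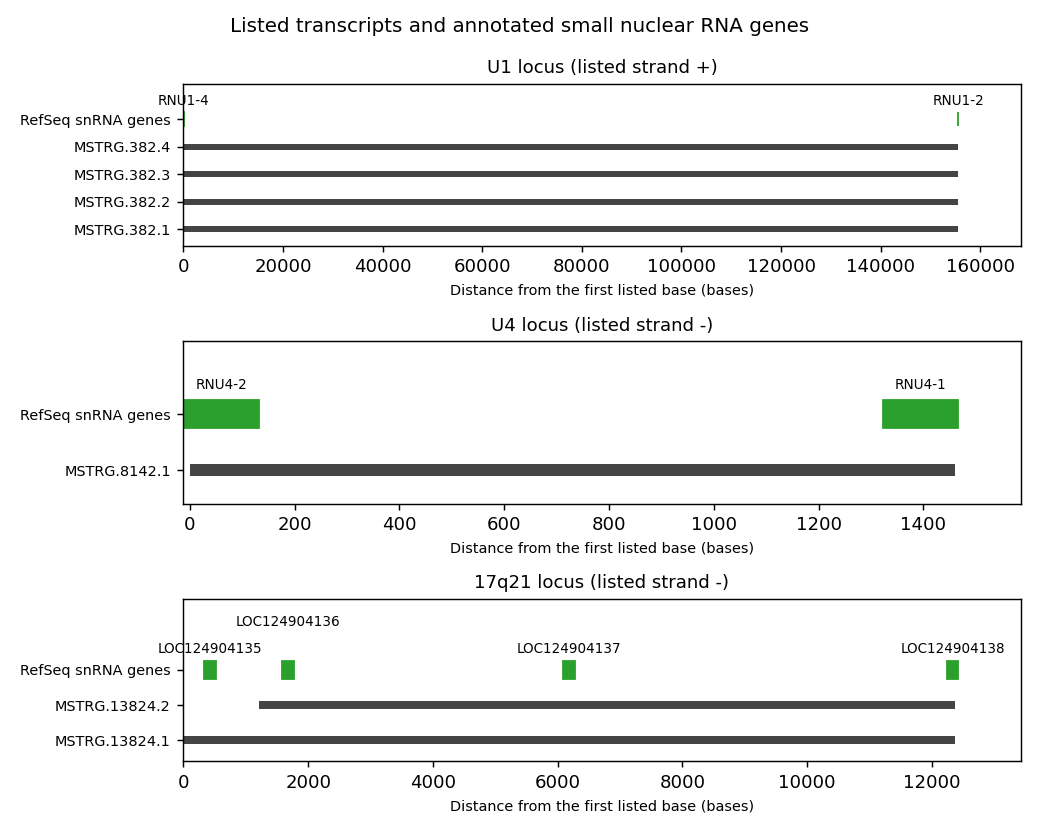
Position of each listed transcript (dark bars) and of the RefSeq snRNA genes it overlaps (green) along the U1, U4 and 17q21 loci, in bases from the first listed base. At U1 and U4 both ends of the transcripts fall inside snRNA genes, and at 17q21 one end does.

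The spacer between the U4 genes is shown because MSTRG.8142.1, the member with reads in Flag-FAK alone, was listed across it. RefSeq's promoter window for 1 of the SIRT4 transcript starts, at chr12:120291939-120292188 of GRCh38.p14 on the plus strand and inside the annotated gene, begins 35 bases from the RNU4-2 edge that faces RNU4-1 and ends 904 bases from RNU4-1, within the 1189 bases between the genes. Capitals mark matches to a pair of motifs known from snRNA promoters, the proximal element (searched as TCACCNTNA, here on the minus strand) and the octamer ATGCAAAT (on the plus strand).
U4 spacer: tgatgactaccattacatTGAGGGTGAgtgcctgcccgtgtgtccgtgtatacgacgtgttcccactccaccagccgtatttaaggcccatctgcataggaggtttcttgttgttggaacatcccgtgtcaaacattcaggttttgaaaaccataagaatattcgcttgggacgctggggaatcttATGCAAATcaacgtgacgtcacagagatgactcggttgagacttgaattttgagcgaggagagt
Counted from the RNU4-2 edge, the proximal element match lay 54 to 62 bases away and the octamer match 222 to 229 bases away. On either strand, the proximal element letters occurred in 2.23% of 35116 RefSeq promoter windows cut to the same length, and the octamer in 1.63%. The motifs were chosen after the sequence had been seen, do not overlap, and are described as letters only.

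The listed reads of Input, IgG and Flag-FAK came to 2056854, 109658 and 48763. Ribosomal DNA transcripts of chromosome 21 took 97.5%, 92% and 91.3% of them, which left 50624, 8777 and 4264 non-ribosomal reads, of which 7SK, the small nuclear RNA that restrains transcription elongation, took 72.8%, 58.2% and 68.3%. The libraries stood apart by strand at the ribosomal DNA, where 0 of 2006230 Input reads but 99.7% of IgG and 99.8% of Flag-FAK reads were counted on the plus-strand transcript. At 7SK the single listed transcript is on the plus strand in every library, and of the remaining reads the plus-strand share was 53.5%, 31.4% and 35.9%, respectively. No other listed transcript, on either strand, overlapped the 3 loci, and the part of this strand difference in the Input values below was not tested.

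Reads on the listed U1 transcripts were counted in both precipitates and not in Input. In the order Input, IgG and Flag-FAK, MSTRG.382.1 had 0, 267 and 115 reads, or 0, 108 and 45.4 FPKM (the deposited counts corrected for transcript length and for the size of the library). MSTRG.382.4 had 0, 0 and 11 reads, the last at 4.32 FPKM, and MSTRG.382.2 and MSTRG.382.3 were at 0 in all 3 libraries. Nearly all U1 reads therefore sat on 1 of 4 overlapping transcripts whose ends differ by 3 bases or fewer. It held 100% (exact 95% interval 98.6 to 100) of the U1 reads in IgG and 91.3% (84.9 to 95.6) in Flag-FAK. The remaining 8.73% (4.44 to 15.1) in Flag-FAK were on MSTRG.382.4, against 0 of 267 in IgG, which allows up to 1.37% (the upper end of the same interval). Since the 4 transcripts share almost all of their sequence, the division of reads between them is uncertain, and the sum over the locus was used.

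**Figure D2:**
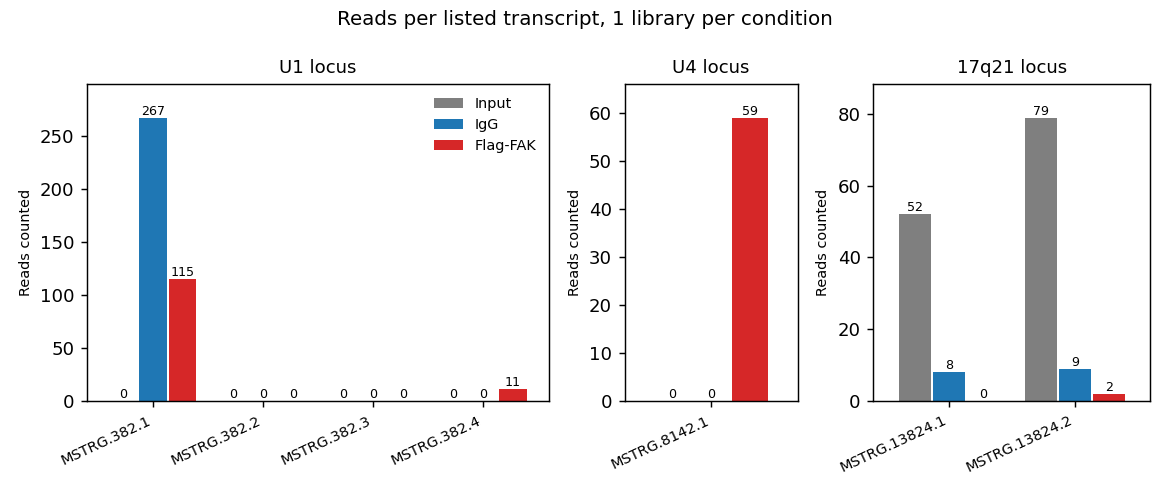
Reads counted on each of the 7 transcripts in the Input, IgG and Flag-FAK libraries, 1 bar per library with its count above it. U1 reads lie in both precipitates, U4 reads in Flag-FAK alone, and 17q21 reads mostly in Input.

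Summed over the locus, the U1 reads of the 3 libraries were 0, 267 and 126 in the same order (0, 108 and 49.7 FPKM). As a share of non-ribosomal reads, U1 took 3.04% (2.69 to 3.42) in IgG and 2.95% (2.47 to 3.51) in Flag-FAK, so the intervals overlapped. With 7SK also left out of the total, the U1 share was 7.28% (6.46 to 8.17) in IgG and 9.33% (7.83 to 11) in Flag-FAK. The ratio of these shares was 1.28, with an odds ratio interval of 1.04 to 1.64. In Input the 0 of 50624 reads allows a share of up to 0.00593%, taking a count of 0 to allow 3 reads. By FPKM, U1 ranked 4 among the 129 non-ribosomal loci with reads in IgG and 4 among the 58 in Flag-FAK.

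Whether U1 was lower in Flag-FAK than in IgG depended on the scale. The Flag-FAK to IgG ratio was 0.461 (exact 95% interval 0.37 to 0.572) in FPKM as deposited. It was 1.05 (0.847 to 1.31) after rescaling each library to the same FPKM total over the 334 transcripts (TPM), and 1.25 (1 to 1.55) when that total left out ribosomal DNA and 7SK. The ratio of the shares of non-ribosomal reads was 0.971 (0.776 to 1.21). U1 was thus clearly lower in the Flag-FAK library on the deposited FPKM scale, as in the unscaled reads, and not on the rescaled ones. On the FPKM scale the median of all 119 loci with at least 0.5 FPKM in a precipitate was also below 0, at -3.61 in log2 (with 0.1 FPKM added to each value), against -1.12 for U1. Only 58 non-ribosomal loci had reads in Flag-FAK, so many of the 119 were at 0 there. At those the ratio is set by the IgG value and the added 0.1 FPKM, so the median is not a typical measured fold. With the 0 in Input set at 3 reads, U1 was 43.6-fold higher than Input in Flag-FAK (interval from 35) and 95.8-fold higher in IgG (from 77.4) in FPKM. In TPM these values were 613-fold and 588-fold, and as shares of non-ribosomal reads 499-fold and 513-fold, so the gap between the precipitates was there in FPKM and not on these scales. Copies made by PCR are not independent molecules, so these intervals reflect the error of counting alone.

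Reads on the listed U4 transcript were counted in the Flag-FAK library alone, which does not show that U4 RNA was absent from the others. MSTRG.8142.1 had no reads in Input, no reads in IgG and 59 reads, at 25.6 FPKM, in Flag-FAK. It took 1.38% (1.05 to 1.78) of the non-ribosomal reads of Flag-FAK, where it ranked 6 by FPKM. The 0 reads allow up to 0.0342% in IgG and 0.00593% in Input, both below the interval in Flag-FAK. The Flag-FAK to IgG ratio was at least 19.2-fold in FPKM (interval from 15.1), at least 43.8-fold in TPM (from 34.6) and at least 52-fold in TPM without ribosomal DNA and 7SK (from 41). As a share of non-ribosomal reads it was 40.5-fold (odds ratio interval from 32.3). Every scale sets the same 59 reads against 0, so the direction could not differ between scales. Against Input, on the same basis, the ratio was 20.4-fold in FPKM (interval from 16.1), 287-fold in TPM and 233-fold as a share of non-ribosomal reads. Between IgG and Input no ratio can be given, because both had 0 reads.

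Reads in Flag-FAK alone were rare among the listed loci. Of 291 non-ribosomal loci, 58 had reads in Flag-FAK and 4 had reads in that library only. The other 3 of these 4 had at most 7 reads. Reads in a precipitate with 0 in Input were seen at 30 loci, 5 of which had at least 20 reads in the precipitates together, U1 and U4 among them.

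At 17q21, unlike at U1 and U4, most reads were in Input. From Input to IgG to Flag-FAK, MSTRG.13824.1 had 52, 8 and 0 reads (11.6, 1.95 and 0 FPKM). MSTRG.13824.2 had 79, 9 and 2 reads (15.9, 1.98 and 0.403 FPKM). Both transcripts ran in the same order, and their sum was 131, 17 and 2 reads. MSTRG.13824.1 held 39.7% (31.3 to 48.6) of the locus reads in Input and 47.1% (23 to 72.2) in IgG, shares whose intervals overlapped, and 0 of only 2 reads in Flag-FAK.

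The 17q21 share of non-ribosomal reads was 0.259% (0.216 to 0.307) in Input and 0.194% (0.113 to 0.31) in IgG. In Flag-FAK it was 0.0469% (0.00568 to 0.169). Input and IgG overlapped, and the Flag-FAK interval lay below that of Input but not below that of IgG. Flag-FAK to Input was 0.0146 (0.0019 to 0.0585) in FPKM and 0.205 (0.0267 to 0.821) in TPM, below 1 on both. Flag-FAK to IgG was 0.102 (0.0128 to 0.483) in FPKM but 0.234 (0.0294 to 1.1) in TPM and 0.242 (0.0271 to 1.02) as a ratio of shares, whose intervals include 1, so 2 reads against 17 did not separate the precipitates on the last 2 scales. IgG to Input was 0.143 (0.0807 to 0.237) in FPKM, 0.876 (0.496 to 1.46) in TPM and 0.748 (0.423 to 1.24) as a ratio of shares, below 1 with its whole interval on the first of these. With ribosomal DNA and 7SK left out of the TPM total it was 0.481 (0.272 to 0.8).

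Counted against all listed transcripts, the members were split in direction. Of the 7 transcripts, 5 reached 0.5 FPKM in either precipitate, since MSTRG.382.2 and MSTRG.382.3 had no reads. MSTRG.382.4 and MSTRG.8142.1 were above 2-fold in Flag-FAK over IgG, 2 of 5 against 14.1% of the 135 transcripts tested, and both had 0 IgG reads. The other 3 were below 0.5-fold, against 77% of all. The median log2 ratio was -1.25 over the 5 and -3.63 over the 135. Only 67 of the listed transcripts had reads in Flag-FAK, so many of the 135 were at 0 there and the added 0.1 FPKM set their ratio. In this and the later comparisons the shares below 0.5-fold include such 0 counts. Of the same comparison over loci, U4 was above 2-fold (12.6% of 119 loci were) and U1 and 17q21 were below 0.5-fold (77.3%). In Flag-FAK over Input, 3 of 5 transcripts were above 2-fold against 5.33% of 300, and 2 were below 0.5-fold against 92.7%. By locus, U1 and U4 were above 2-fold (4.49% of 267 loci were) and 17q21 was below 0.5-fold (92.9%). In IgG over Input, 1 of the 3 tested was above 2-fold against 13.4% of 321, and 2 were below 0.5-fold against 78.8%. By locus, U1 was above 2-fold (12.7% of 284 loci were) and 17q21 was below 0.5-fold (79.9%). The comparisons share libraries, and counts of so few members are a description.

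Ratios between the loci within a library do not depend on its total. U1 had 15.7 reads for each 17q21 read in IgG (9.63 to 27.4) and 63 in Flag-FAK (17.1 to 526). The ratio of these was 4 (0.927 to 36.2), which includes 1. In Input, U1 had 0 reads against 131 at 17q21, at most 0.0286 per 17q21 read, below both precipitates. U4 had 0.468 reads per U1 read in Flag-FAK (0.338 to 0.643) and at most 0.0139 in IgG, and the ratio of these was at least 31.9 by the lower end of its interval. Reads on the listed U4 and U1 transcripts thus differed between the precipitates in relative number, independent of any scaling. That difference rests on the 0 count of U4 in the 1 IgG library, and the amounts of the U4 and U1 RNAs were not measured.

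The deposited FPKM also bound the length over which the reads were counted. If FPKM per read is inverse to the counted length, FPKM per read multiplied by span is lowest, within a library, for a transcript counted over its whole span, which puts an upper limit on the counted length of the others. This limit was 290 bases for MSTRG.382.1 in IgG and 308 in Flag-FAK, against its span of 155616 and 316 bases on the U1 genes. For MSTRG.8142.1 it was 280 bases, against a span of 1461 and 272 bases on the U4 genes. For MSTRG.13824.1 and MSTRG.13824.2 it was 472 and 524 bases in Input, against 704 and 513 bases on the snRNA genes they cover. On the same assumption, the counted length of the U4 transcript was 0.91 times that of MSTRG.382.1, and its bases on snRNA genes were 0.861 times as many. Over 26 transcripts, what 1 read was worth in FPKM in Flag-FAK over IgG ran from 0.809 to 1.05. The assumption therefore holds only roughly, and differences of that size between these lengths are not resolved. By these limits most of each span was not counted, and which bases were counted is not given.

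The loci with the most similar division of FPKM between the 3 libraries were taken from 103 others with at least 20 reads, by the summed absolute difference of the FPKM shares, halved, where 0 is identical and 1 is disjoint. U1 divided 0, 68.4 and 31.6% between Input, IgG and Flag-FAK. Its nearest were the plus-strand ribosomal DNA locus (distance 0.0145, with 0, 100554 and 44394 reads), the unnamed MSTRG.9167 on chromosome 14 (0.0309) and MSTRG.19865 on chromosome 20 (0.079, with 0, 1086 and 345 reads). U4 had no near match among these loci, the closest being MSTRG.9167 at 0.654 and U1 at 0.684. The other loci with reads in Flag-FAK alone, which divide as U4 does, had at most 7 reads. They fell below the minimum of 20, so the lack of a match does not mark U4 as unique. 17q21 divided 86.4, 12.3 and 1.26%, and its nearest were the lncRNA loci GIHCG (0.0126, with 31, 5 and 0 reads) and MIR23AHG (0.0126, with 22, 3 and 0) and MSTRG.19076 on chromosome 2 (0.0159, with 17, 3 and 0).

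MSTRG.9167 is itself a U1 locus. It was picked for its likeness to U1 in these libraries, so its ratios below are a description and lend no support to those of U1. It ran from 34546721 to 34556375 on the plus strand of chromosome 14, beginning in the U1 pseudogene RNU1-27P and ending in RNU1-28P. Its reads in the 3 libraries were 0, 143 and 78 (0, 58 and 30.7 FPKM), or 1.63% (1.37 to 1.92) and 1.83% (1.45 to 2.28) of the non-ribosomal reads of the precipitates. Its Flag-FAK to IgG ratio was 0.53 (0.397 to 0.703) in FPKM, 1.21 (0.909 to 1.61) in TPM and 1.44 (1.08 to 1.91) in TPM without ribosomal DNA and 7SK. Chromosome 1 U1 had 1.87 reads per MSTRG.9167 read in IgG (1.52 to 2.3) and 1.62 in Flag-FAK (1.21 to 2.17), and the ratio of these was 0.865 (0.603 to 1.25). Reads of U1 can align to several near-identical copies, and how the authors' counting treated them is not given in the sources used here, so neither locus is a measure of a single gene.

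Across the listed transcripts, 15 overlapped an annotated snRNA gene other than 7SK or an snRNA pseudogene, and 6 of these had both ends inside such copies. These 6 were the 4 U1 and the U4 members and MSTRG.9167.1, which make 3 loci, and all 6 had 0 reads in Input, as did 43 of the 334 transcripts (12.9%). MSTRG.382.2 and MSTRG.382.3 had 0 reads in every library. This search was made after the values of the members had been seen. Of 22 genes for other splicing, histone-processing, signal recognition and RNase RNAs listed for context, only RN7SK lay on a listed transcript, with 36842, 5108 and 2913 reads and a Flag-FAK to IgG ratio of 0.556 (0.531 to 0.582) in FPKM. The U5, U6, U11 and U12 genes of that list lay on none. Only lncRNA transcripts were listed, so this does not show that those genes had no reads. One further listed transcript, on chromosome 17, overlapped an snRNA gene, LOC124904122, and had 3, 9 and 0 reads.

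The members were listed as lncRNAs, as were all 334 transcripts, so their non-coding calls follow from the list. Their CPC scores, negative for a non-coding sequence, ran from -1.52 to -1.03 against a median of -1.02 over the 334, all of which were negative. Their CPAT coding probabilities ran from 0.0115 to 0.0257 against a median of 0.027. Their CNCI scores were negative too, and at the U1 transcripts only just, at -0.0004096. The tables also list neighbouring genes for each transcript. The U4 transcript was paired with 5 of them, SIRT4, MSI1, PLA2G1B, RPLP0 and PXN, the last being the gene of paxillin, a focal adhesion protein that binds FAK. This pairing rests on position and holds no measurement.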

How the data were processed

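RNA retrieved with anti-FLAG antibody or IgG and input RNA of MDA-MB-231 cells were sequenced as 1 library each. The submitters' processing notes name StringTie and GRCh38. The aligner, counting tool, annotation and strand setting are not given in the sources used here. For each library the authors deposited FPKM values, scaled to a total that is not given, and read counts in whole numbers of the same 334 transcripts from 293 loci, on 7007 lines that repeat each transcript per predicted target and were reduced to 1. The deposited CPC and CNCI scores and the CPAT coding probability, a fraction, were made by the authors from sequence. The listed targets were not tested.

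Groups came from the submitters' labels. Ratios are of FPKM, and log2 ratios have 0.1 added to each value. A transcript or locus was counted as above 2-fold or below 0.5-fold with at least 0.5 FPKM in either library. Exact 95% Clopper-Pearson limits of each read ratio were put on the FPKM scale by what 1 read was worth in FPKM in one library over the other (own value with at least 5 reads in both, otherwise the median, which was 0.974 over 26 transcripts for Flag-FAK to IgG). A count of 0 was taken to allow 3 reads. Fold values on that basis leave out the counting error of the other count, which the interval ends include. Limits given with a ratio of shares are the exact limits of the conditional odds ratio of locus reads to all other reads counted. Ribosomal DNA and 7SK transcripts were found by overlap with RefSeq genes of GRCh38.p14, on which 33 of 33 transcripts named by symbol lay on their gene. RefSeq's table used here gives no gene strand. Its promoter windows supplied the sequence shown.

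The members, gene lists and tests were chosen with earlier results of these data known. The genes named are the members and the RefSeq genes over them, other loci over an snRNA gene or a listed non-coding RNA gene, and for each locus the 3 loci nearest in division of FPKM. The chromosome 14 locus came in by the last of these. Alternatives were TPM with a total of 1000000, pseudocounts of 0.01 and 1, other minimum values, reads in place of FPKM, other denominators and, chosen after seeing the data, reads per non-ribosomal read. The functions were tested on simulated data. Tools were scipy 1.17.1, numpy 2.4.6, matplotlib 3.10.9 and pandas 2.3.3 under Python 3.11.15.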

Additional observations from a re-analysis of the deposited data

How the results depend on the processing

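With 1 library per condition the values describe these libraries only, and the 4264 non-ribosomal reads of Flag-FAK limit precision most at 17q21, which had 2. No paired analysis was possible because there is only 1 library in each group. Of 60 alternatives over 12 results, 47 were the same, 11 moved and 2 reversed. Same means that direction held and the value lay within the counting interval. For the count of members above 2-fold, which has no interval, it means no change. The 60 include reads per non-ribosomal read, chosen after seeing the data. A value called the same can still have an interval that includes 1, as Flag-FAK to IgG at 17q21 had in TPM (0.0294 to 1.1). Of the 47, 24 are ratios against a count of 0, whose interval has no upper end, so they say nothing of stability, and their log2 values ran from 4.73 to 20.13 with the pseudocount and the scale. The other 23 are of 36. At U1 the log2 ratio between the precipitates, Flag-FAK over IgG, was -1.12 in FPKM. It reversed to 0.08 in TPM and 0.32 in TPM without ribosomal DNA and 7SK, and was -0.04 per non-ribosomal read, a setting chosen after seeing the data. The 17q21 log2 ratio of Flag-FAK to Input, -5.78 in FPKM, was -2.28 in TPM, -2.90 in TPM without ribosomal DNA and 7SK and -1.89 per non-ribosomal read. That of IgG to Input, -2.78 in FPKM, was -0.19, -1.06 and -0.35 under the same settings. The TPM settings change only the total that each library is scaled to. Of the 2 transcripts above 2-fold over IgG, 0 were left when at least 0.1 FPKM was required in both precipitates, since both had 0 IgG reads, and summing over loci gave 1. Leaving 7SK out of the denominator raised the Flag-FAK share from 2.95 to 9.33% for U1 and from 1.38 to 4.37% for U4. IgG to Input at U4 has no value under any setting, both counts being 0.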
